A study of Homo sapiens with 30 samples.

Results

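XPC, DDB2, RRM2B, GADD45A, POLH and ASCC3 are genes of DNA repair and of DNA synthesis linked to repair that are known as transcriptional targets of p53. The 6 genes were chosen with earlier results of these data known. They were taken by name, as every probe whose platform annotation gives one of these symbols. They are read by 12 of the array's 48802 probes and make up 6 of the 18665 genes that have a probe with a single symbol. p53 is a transcription factor that DNA damage stabilizes, and it binds response elements in or near its target genes. Its repair targets act in different pathways: nucleotide excision repair removes bulky and ultraviolet-induced lesions, ribonucleotide reductase makes the deoxynucleotides that repair synthesis uses, and translesion polymerases copy damaged templates.

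The RNA came from U2OS cells, a human osteosarcoma line, and was read on 30 Illumina bead arrays of 1 colour, in 10 groups of 3. Every group, controls included, was infected with a pSIREN retrovirus that expresses a short hairpin RNA (shRNA). In the first experiment the cells received NFBD1 hairpin b together with the p53 shRNA, the p53 shRNA alone, hairpin b alone or the control shRNA, and 2 days later each was given 5 Gy of caesium-137 radiation or a mock treatment of 0 Gy, with RNA taken 4 h after that. The second experiment holds unirradiated cells with a different hairpin against NFBD1 (the second hairpin), and their own control shRNA. NFBD1 is the protein of the gene MDC1, a mediator of the DNA damage checkpoint. Only 1 cell line, 1 p53 hairpin, 1 dose and 1 time were used, and nothing says whether replicates came from separate infections, so p-values measure the spread between these samples, which may be technical. The stated purpose was to learn what NFBD1 does to gene expression, whether cells are irradiated or not, and which effects involve p53.

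Each array read 34.1% to 40.3% of its probes above background (detection p under 0.01), and replicate arrays correlated at 0.979 to 0.997. MDC1 was lower with hairpin b in each of its 4 pairs of groups, by 1.17 to 1.84 on the log2 scale, and its log2 change with the second hairpin was -2.41. The p53 transcript was not analysed here. Of 10 osteosarcoma and mesenchymal markers, 8 were above background on all 30 arrays, while COL1A2 was above it on 0 and IBSP on 3. Of 6 epithelial markers EPCAM was above background on all 30 arrays, CDH1 on 28, CLDN7 on 3, KRT14 on 2, and KRT5 and KRT19 on 0. Of 5 neural markers TUBB3, NEFL and SNAP25 were above it on all 30, MAP2 on 29 and GFAP on 2. Of the 5 blood cell markers with a probe, CD14 was above it on 21 arrays, HBB on 12, and PTPRC, CD3E and HBA1 on 0.

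The DDB2 promoter holds the only match to the p53 response element among the members' RefSeq promoter windows (assembly GRCh38.p14), and it is shown because DDB2 is among the members that were lower with the p53 shRNA. Windows run from 250 bases before to 50 after a transcript start. The table holds 4 windows of 3 members: 1 of XPC, 2 of DDB2 and 1 of POLH, and RRM2B, GADD45A and ASCC3 are named only. The search, on both strands, was for a pair of the consensus p53 half-sites of 10 bases, up to 13 bases apart, with at most 2 mismatches outside the 4 core bases of each. The second DDB2 window holds a pair with 0 mismatches and a spacer of 1 base at chr11:47214979-47214999 on the plus strand, starting at base 6 when that transcript start is base 1, and so inside the transcribed region. The capitals mark the core of each half-site.
DDB2: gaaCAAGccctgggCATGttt
Such a match stood in 512 of 35116 windows of the same length, or 1.46%, and in 10 of them it had 0 mismatches. The other 3 windows held no match by this definition, which says only that these letters are not in those windows.

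Across the 4 shRNA treatments of the first experiment, the mean change with radiation was upward and past the threshold for 4 of the 6 genes: RRM2B (log2 change 0.49 ± 0.09 SE, 1.40-fold), GADD45A (0.46 ± 0.07, 1.38-fold), DDB2 (0.44 ± 0.10, 1.35-fold) and XPC (0.40 ± 0.06, 1.32-fold). Their limma adjusted p-values (Benjamini-Hochberg over all 12419 genes tested) were 0.00138, 0.000304, 0.0182 and 0.000195. Over all genes 0.515% were called higher in that comparison. POLH changed by 0.11 ± 0.10 and ASCC3 by 0.09 ± 0.09, with 95% intervals from -0.10 to 0.31 and from -0.10 to 0.29. The median of the 6 genes was 0.42, and that of all genes tested 0.00.

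The mean change with the p53 shRNA over its 4 pairs of groups was downward and past the threshold for 5 of the 6 genes. RRM2B fell by 0.95 on the log2 scale (SE 0.09, 1.93-fold lower, limma adjusted p = 2.3e-07), DDB2 by 0.83 (SE 0.10, 1.78-fold, 1.0e-05), XPC by 0.52 (SE 0.06, 1.44-fold, 6.9e-06), GADD45A by 0.38 (SE 0.07, 1.30-fold, 0.00251) and ASCC3 by 0.34 (SE 0.09, 1.26-fold, 0.0472). Over all genes 2.36% were called lower. POLH had a change of -0.25 ± 0.10 (adjusted p = 0.197), called with the chip as a block (-0.32, adjusted p = 0.0340) but not with the replicate number as a block (0.0797). In bulk RNA, fewer expressing cells and less RNA per cell cannot be told apart. The calls of XPC, DDB2, RRM2B and GADD45A for radiation and for the p53 shRNA held in all 8 alternative settings and without any 1 of the 24 arrays, whereas that of ASCC3 was lost without any of 18 arrays (adjusted p up to 0.0946) and in 3 settings (0.0519 to 0.0668).

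**Figure D1:**
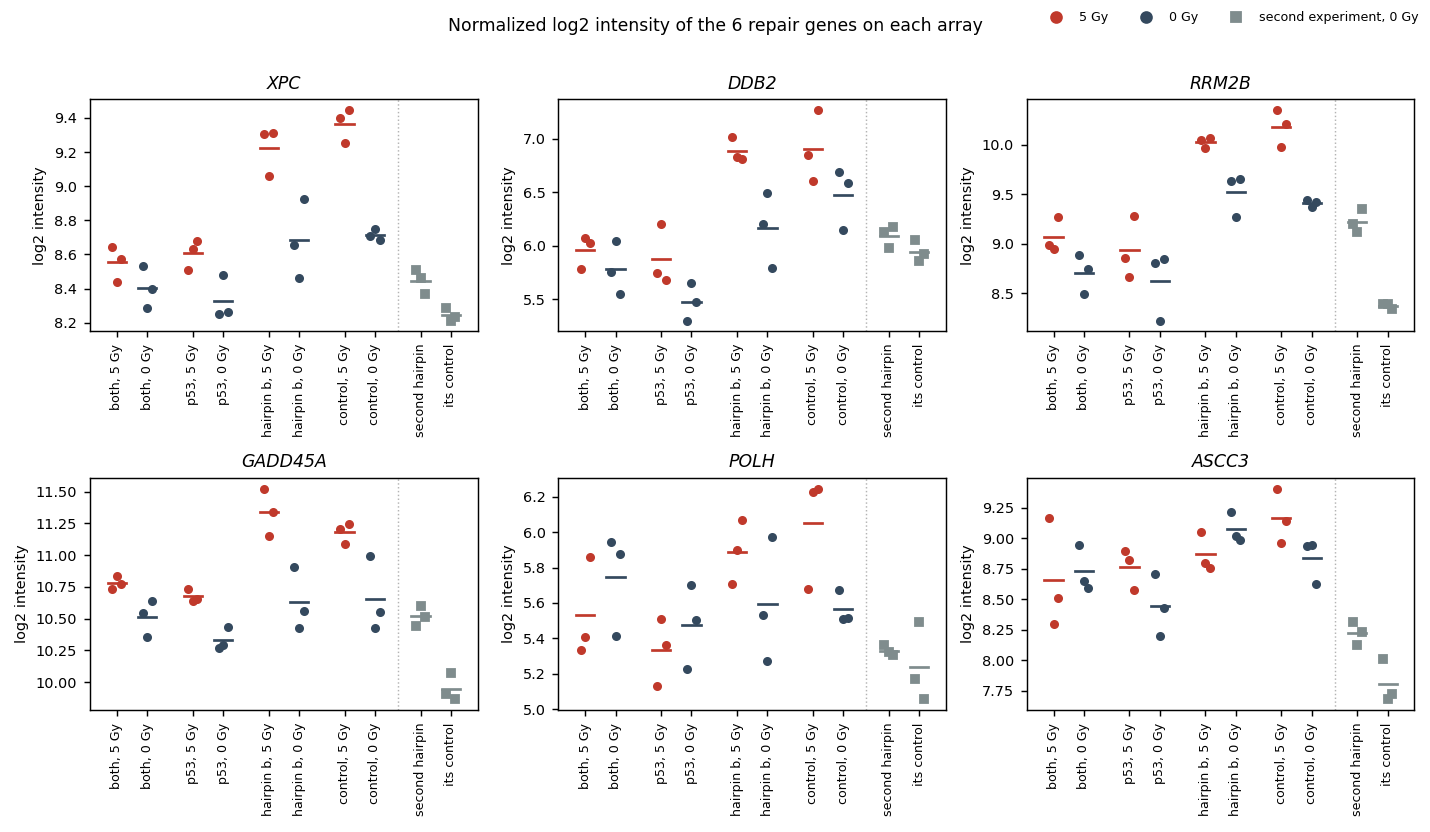
Normalized log2 intensity (vertical axis, own scale for each gene) of the tested probe of each gene on all 30 arrays, with points for arrays and lines for group means. For XPC and RRM2B all irradiated arrays with hairpin b or control shRNA lie above all arrays of the other first-experiment groups, while for DDB2 irradiated control arrays overlap unirradiated ones.

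XPC is the damage sensor that opens nucleotide excision repair over the whole genome. With both shRNAs its log2 intensity was 8.64, 8.44 and 8.58 at 5 Gy, against 8.53, 8.29 and 8.40 at 0 Gy. With the p53 shRNA alone it was 8.51, 8.63 and 8.68 at 5 Gy, against 8.25, 8.48 and 8.26 at 0 Gy. With hairpin b it was 9.30, 9.06 and 9.31 at 5 Gy, against 8.66, 8.46 and 8.93 at 0 Gy. Irradiated arrays thus lay above unirradiated ones with hairpin b and with the p53 shRNA, and overlapped them with both shRNAs. Control cells had 9.40, 9.25 and 9.45 at 5 Gy, against 8.71, 8.75 and 8.68 at 0 Gy, again with no overlap. The rise with radiation was 0.54 ± 0.12 with hairpin b (1.46-fold, limma adjusted p = 0.0303; 0.38 to 0.65 on the 3 chips) and 0.65 ± 0.12 in control cells (1.57-fold, adjusted p = 0.00668; 0.50 to 0.76). Cells with both shRNAs had a change of 0.15 ± 0.12 and those with the p53 shRNA alone 0.28 ± 0.12, neither past the threshold. The p53 shRNA lowered XPC in irradiated cells, with log2 changes of -0.76 ± 0.12 alone (1.69-fold lower, adjusted p = 0.00160) and -0.67 ± 0.12 beside hairpin b (1.59-fold lower, adjusted p = 0.00860). On the 2 chips that hold both groups these were -0.89 and -0.82 alone, and -0.73 and -0.41 beside hairpin b. In unirradiated cells the changes were -0.39 ± 0.12 (adjusted p = 0.413) and -0.28 ± 0.12 (adjusted p = 1.00).

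Some of these XPC calls were lost when 1 array was left out. The rise then ran from 0.61 to 0.71 in control cells and from 0.43 to 0.66 with hairpin b. The change with the p53 shRNA beside hairpin b at 5 Gy ran from -0.75 to -0.61. The rise in control cells was lost without irradiated control replicate 3 (adjusted p = 0.0522). That with hairpin b was lost without its unirradiated replicates 1 and 2 (0.0979 and 0.227) or its irradiated replicates 1 and 3 (0.108 and 0.105). The fall beside hairpin b was lost without irradiated hairpin b replicates 1 and 3 (0.0534 and 0.0551) or irradiated replicate 2 with both shRNAs (0.0816). The fall with the p53 shRNA alone at 5 Gy held without each of its 6 arrays (adjusted p up to 0.0184).

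DDB2 is the subunit of the UV-damaged DNA-binding complex that finds ultraviolet lesions and helps bring XPC to them. With both shRNAs it had 5.79, 6.07 and 6.03 at 5 Gy, against 5.76, 6.04 and 5.55 at 0 Gy. The p53 shRNA gave 5.75, 6.20 and 5.68 at 5 Gy, against 5.30, 5.65 and 5.47 at 0 Gy. With hairpin b, values were 7.02, 6.83 and 6.81 at 5 Gy, against 6.21, 6.49 and 5.79 at 0 Gy. Arrays of the 2 doses did not overlap with hairpin b or with the p53 shRNA. Control cells had 6.85, 6.61 and 7.27 at 5 Gy, against 6.69, 6.14 and 6.59 at 0 Gy, and these overlapped. No single treatment gave DDB2 a called rise: its log2 changes with radiation were 0.18 ± 0.20 with both shRNAs, 0.40 ± 0.20 with the p53 shRNA, 0.72 ± 0.20 with hairpin b (adjusted p = 0.116) and 0.44 ± 0.20 in control cells. The change with hairpin b was called with the chip as a block (0.72, adjusted p = 0.0179; 0.34 to 1.02 on the 3 chips) but not with the replicate number as a block, which there pairs the samples (0.0703).

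The p53 shRNA lowered DDB2 in irradiated cells with hairpin b (log2 change -0.92 ± 0.20, 1.89-fold, limma adjusted p = 0.0364), in irradiated cells without it (-1.03 ± 0.20, 2.05-fold, adjusted p = 0.00985) and in unirradiated cells without it (-1.001 ± 0.20, 2.00-fold, adjusted p = 0.0243). Within chips the 3 changes were -1.04 and -0.78, -1.11 and -1.07, and -1.39 and -0.94. In unirradiated cells with hairpin b the change was -0.38 ± 0.20 (adjusted p = 1.00). Without 1 array the unirradiated call was lost in all cases but that of control replicate 2 (adjusted p 0.0522 to 0.207). The call at 5 Gy was lost without p53 shRNA replicate 1 or 3 or control replicate 3 (0.0765 to 0.0915), and that beside hairpin b without any of its 6 arrays (0.0924 to 0.229). DDB2's probe was dim, with a median signal of 92.9 before correction, and the size of its changes differed between settings: over the alternatives the mean change with the p53 shRNA ran from -0.87 to -0.29 and that with radiation from 0.15 to 0.44, the smallest of each on the authors' processed values.

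RRM2B is the small subunit of ribonucleotide reductase that cells use outside S phase. With both shRNAs it had 8.99, 8.95 and 9.27 at 5 Gy, against 8.88, 8.49 and 8.74 at 0 Gy. The p53 shRNA alone gave 8.86, 8.66 and 9.28 at 5 Gy, against 8.80, 8.22 and 8.84 at 0 Gy. With hairpin b it had 10.05, 9.96 and 10.07 at 5 Gy, against 9.63, 9.27 and 9.65 at 0 Gy. The doses overlapped with the p53 shRNA alone and were apart in the other 2 treatments. In control cells RRM2B had 10.35, 9.98 and 10.21 at 5 Gy, against 9.44, 9.37 and 9.42 at 0 Gy, with no overlap. The change with radiation was short of the threshold with hairpin b (0.51 ± 0.17, limma adjusted p = 0.237; 0.42 to 0.69 on the 3 chips) and past it in control cells (0.77 ± 0.17, 1.70-fold, adjusted p = 0.0357; 0.60 to 0.91). With the replicate number as a block, which there pairs the samples, the change with hairpin b was called (adjusted p = 0.0352), as it was with the chip as a block (0.0460). The change was 0.37 ± 0.17 beside both shRNAs and 0.31 ± 0.17 beside the p53 shRNA alone, and neither was called.

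RRM2B had the largest log2 fall with the p53 shRNA of the 6 genes at 5 Gy, -1.25 ± 0.17 (2.37-fold lower, limma adjusted p = 0.000456; -1.54 and -1.49 on the 2 chips that hold both groups), and it was called without any 1 of the 6 arrays. Beside hairpin b at 5 Gy the change was -0.96 ± 0.17 (1.94-fold lower, adjusted p = 0.00860; -0.97 and -0.80 within chips), and at 0 Gy without it -0.79 ± 0.17 (1.73-fold lower, adjusted p = 0.0456; -1.20 and -0.64). Beside hairpin b at 0 Gy it was -0.81 ± 0.17, short of the threshold (adjusted p = 0.0561) but called with the replicate number as a block (0.00142) and with the chip as a block (0.0129). The call at 0 Gy was lost without any of its 6 arrays (0.0568 to 0.275). That beside hairpin b at 5 Gy was lost without replicate 1 or 2 with both shRNAs (0.0557 and 0.0757). The rise in control cells was lost without any of its 6 arrays but irradiated replicate 2 (0.108 to 0.259). RRM2B's other probe had log2 changes of 0.81 with radiation in control cells (adjusted p over all 16607 probes 0.0461) and -1.21 with the p53 shRNA at 5 Gy (0.0011).

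GADD45A is a small stress-induced protein that binds PCNA and the kinase MEKK4 and acts in checkpoint arrest and repair. Both shRNAs together gave 10.73, 10.84 and 10.77 at 5 Gy, against 10.54, 10.36 and 10.64 at 0 Gy. Cells with the p53 shRNA alone had 10.73, 10.64 and 10.66 at 5 Gy, against 10.27, 10.30 and 10.44 at 0 Gy. With hairpin b it had 11.52, 11.15 and 11.34 at 5 Gy, against 10.91, 10.42 and 10.56 at 0 Gy. Control cells had 11.21, 11.09 and 11.25 at 5 Gy, against 10.997, 10.43 and 10.55 at 0 Gy, so in all 4 treatments the irradiated arrays lay above the unirradiated ones. The rise was past the threshold with hairpin b (0.71 ± 0.14, 1.63-fold, limma adjusted p = 0.0124; 0.61 to 0.78 on the 3 chips). It was lost there without irradiated replicate 1 (0.0825) or unirradiated replicate 2 or 3 (0.122 and 0.0765). In control cells the change was 0.52 ± 0.14 (adjusted p = 0.182), called with the chip (0.0256) or the replicate number (0.0394) as a block. It was also called without unirradiated control replicate 1 (0.69, adjusted p = 0.0184), whose value was the highest of its group. Both shRNAs together left a change of 0.27 ± 0.14 and the p53 shRNA alone 0.34 ± 0.14, and neither was called.

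GADD45A's changes with the p53 shRNA were -0.51 ± 0.14 at 5 Gy (adjusted p = 0.154) and -0.56 ± 0.14 beside hairpin b at 5 Gy (adjusted p = 0.126), with no overlap between arrays in either pair. The change at 5 Gy was called with the chip as a block (adjusted p = 0.0158). That beside hairpin b was called with the replicate number as a block, which there pairs the samples (0.0233), but not with the chip as a block (0.0543). At 0 Gy they were -0.32 ± 0.14 alone and -0.12 ± 0.14 beside hairpin b, where the values were 0.08 and 0.12 on the 2 chips that hold both groups. The gene's other probe gave 0.87 with radiation beside hairpin b (adjusted p over probes 0.0094), while its mean change with the p53 shRNA, -0.29 ± 0.08, was not called (0.0622).

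POLH is DNA polymerase eta, which copies past ultraviolet-induced dimers. With both shRNAs it had 5.33, 5.41 and 5.86 at 5 Gy, against 5.94, 5.41 and 5.88 at 0 Gy. In cells with the p53 shRNA alone it had 5.13, 5.51 and 5.36 at 5 Gy, against 5.23, 5.70 and 5.50 at 0 Gy. With hairpin b it had 5.71, 5.90 and 6.07 at 5 Gy, against 5.53, 5.27 and 5.97 at 0 Gy. In control cells the values were 5.68, 6.23 and 6.24 at 5 Gy, against 5.67, 5.51 and 5.51 at 0 Gy, where irradiated replicate 1 lay just above the highest unirradiated array and the other 2 well above it. None of POLH's changes with radiation was called: they were -0.21 ± 0.20 with both shRNAs, -0.14 ± 0.20 with the p53 shRNA, 0.30 ± 0.20 with hairpin b and 0.49 ± 0.20 in control cells. On the 3 chips the last ran from 0.01 to 0.73. The p53 shRNA gave -0.72 ± 0.20 at 5 Gy (limma adjusted p = 0.136, no overlap between arrays), called with the chip as a block (-0.80, adjusted p = 0.0203). Its other changes with the p53 shRNA were -0.36 ± 0.20 beside hairpin b at 5 Gy, 0.15 ± 0.20 beside hairpin b at 0 Gy and -0.09 ± 0.20 at 0 Gy. The probe's median signal before correction was 77.4, close to background, and the gene's other probe was above background on only 3 of 24 arrays. The size of POLH's changes also differed between alternative settings. With the p53 shRNA at 5 Gy it ran from -0.80 to -0.19, and with radiation in control cells from 0.14 to 0.50.

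ASCC3 is a helicase that unwinds DNA for the alkylation repair enzyme ALKBH3. Both shRNAs together gave 9.17, 8.30 and 8.51 at 5 Gy, against 8.95, 8.65 and 8.60 at 0 Gy. The p53 shRNA alone gave 8.90, 8.82 and 8.58 at 5 Gy, against 8.71, 8.20 and 8.43 at 0 Gy. With hairpin b it had 9.05, 8.80 and 8.76 at 5 Gy, against 9.22, 9.02 and 8.98 at 0 Gy. Control cells had 9.40, 8.96 and 9.14 at 5 Gy, against 8.93, 8.95 and 8.62 at 0 Gy, and there alone the doses did not overlap. The changes with radiation, none of them called, were -0.07 ± 0.19 with both shRNAs, 0.32 ± 0.19 with the p53 shRNA, -0.20 ± 0.19 with hairpin b and 0.33 ± 0.19 in control cells. With the p53 shRNA the gene changed by -0.40 ± 0.19 at 5 Gy, -0.39 ± 0.19 at 0 Gy, -0.21 ± 0.19 beside hairpin b at 5 Gy and -0.34 ± 0.19 beside hairpin b at 0 Gy, none past the threshold in a single pair. All 4 ASCC3 probes were lower with the p53 shRNA on the mean of the 4 pairs, the other 3 by 0.18 to 0.27 on the log2 scale, and only the tested probe was called.

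**Figure D2:**
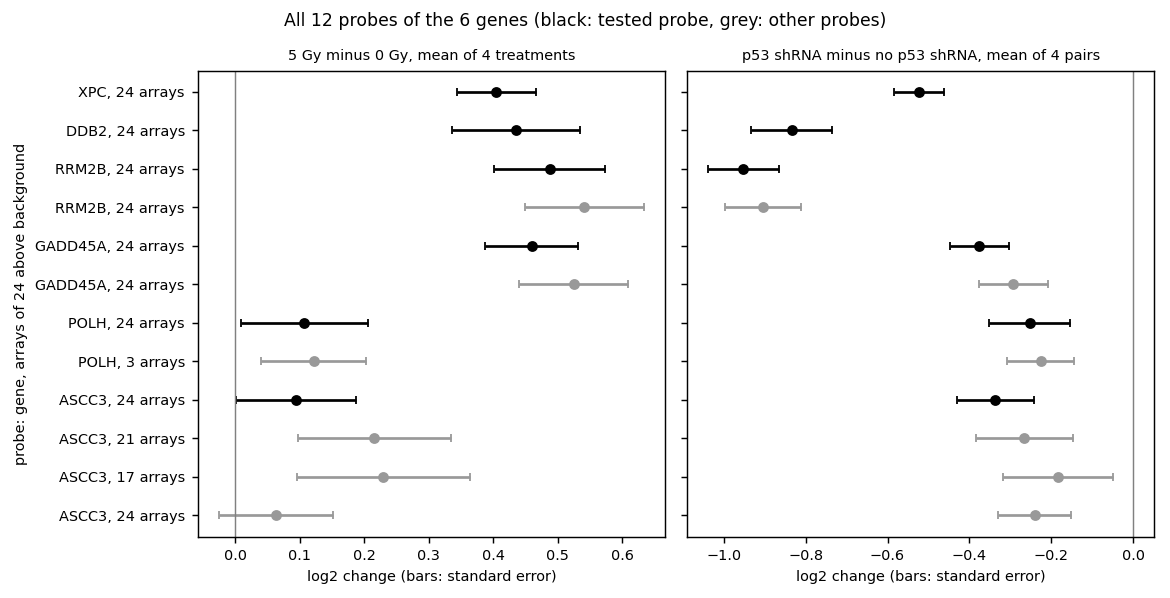
Mean log2 change with its standard error of each of the 12 probes of the 6 genes, for 5 Gy against 0 Gy (left) and for the p53 shRNA against no p53 shRNA (right). Both RRM2B and both GADD45A probes are higher at 5 Gy, and all 12 probes lie below 0 with the p53 shRNA.

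Compared by treatment, radiation raised 2 members of 6 in cells with hairpin b (XPC and GADD45A) and 2 in control cells (XPC and RRM2B), where 0.234% and 0.209% of all genes tested were called higher. It raised 0 members with both shRNAs and 0 with the p53 shRNA alone, where 0.00805% and 0.0242% of genes were called higher and 1 and 2 members had an unadjusted p under 0.05. The medians of the 6 log2 changes were 0.16 with both shRNAs, 0.31 with the p53 shRNA, 0.53 with hairpin b and 0.50 in control cells, against medians of all genes from -0.02 to 0.01. Arrays did not overlap for 2, 3, 4 and 5 of the members in that order of treatments, and for 3.45%, 4.85%, 5.33% and 3.61% of all genes. CDKN1A, the gene of the cell cycle inhibitor p21 and the best-known p53 target, rose in all 4 treatments, by 1.04 with both shRNAs, 1.24 with the p53 shRNA, 1.53 with hairpin b and 1.72 in control cells on the log2 scale. When only the arrays of the 2 groups compared were fitted, 0 members were called with hairpin b and 0 in control cells, against 2 and 2 in the fit over all groups. In the fit over all groups 4 and 5 members had an unadjusted p under 0.05. Blocking by chip called 4 with hairpin b, and blocking by replicate number called 3 of these, without DDB2. In control cells either block added GADD45A to XPC and RRM2B (limma adjusted p = 0.0256 by chip and 0.0394 by replicate number).

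**Figure D3:**
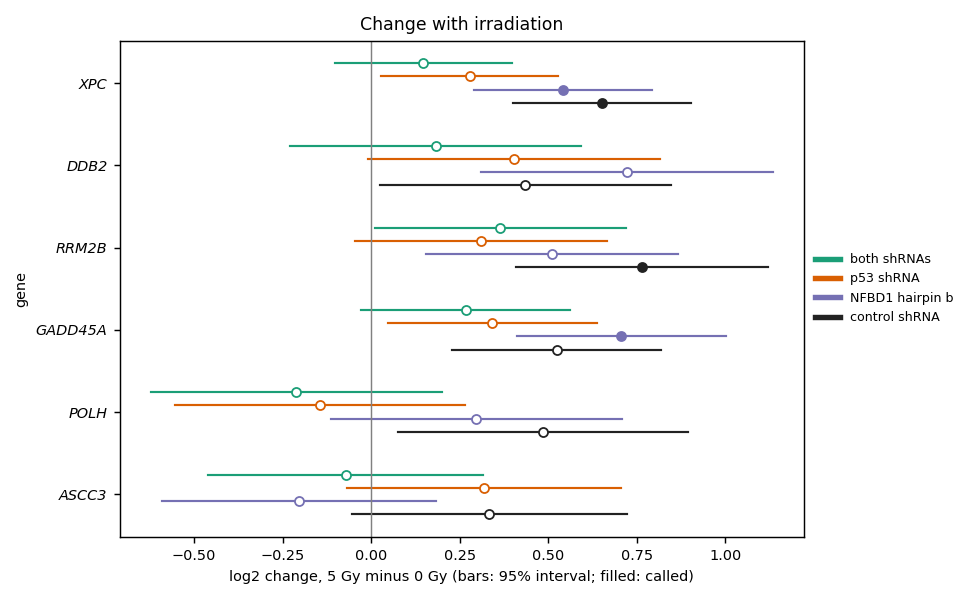
Log2 change from 0 to 5 Gy (horizontal axis, positive is higher at 5 Gy) of each gene in the 4 shRNA treatments, with 95% intervals and filled points for calls. The called changes are those of XPC with hairpin b and control shRNA, of RRM2B with control shRNA and of GADD45A with hairpin b.

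The difference between these radiation changes with and without the p53 shRNA was tested as an interaction, pooled over hairpin b. It was -0.57 ± 0.20 for POLH, -0.38 ± 0.12 for XPC, -0.31 ± 0.14 for GADD45A, -0.30 ± 0.17 for RRM2B, -0.29 ± 0.20 for DDB2 and 0.06 ± 0.19 for ASCC3. POLH, XPC and GADD45A had unadjusted p-values of 0.00876, 0.00439 and 0.0405, but all 6 limma adjusted p-values were 0.998, so a smaller response under the p53 shRNA was not shown for any member. Over all genes 0.0161% were called in that test, namely the p53 targets PPM1D and SESN1, both lower, and 425 genes had an unadjusted p under 0.05. In the same test by hairpin b, 0 of the 12419 genes were called by limma, 702 had an unadjusted p under 0.05, and the only member below 0.05 was ASCC3 (-0.46 ± 0.19, unadjusted p = 0.0210, adjusted p = 0.819).

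The p53 shRNA lowered 3 members at 5 Gy (RRM2B, XPC and DDB2), the same 3 beside hairpin b at 5 Gy, 2 at 0 Gy (DDB2 and RRM2B) and 0 beside hairpin b at 0 Gy, where 2 members had an unadjusted p under 0.05. The shares of all genes called lower were 0.604%, 0.362%, 0.322% and 0.153%. Without 1 array, the genes called in either direction numbered 36 to 57 against 87 with all arrays at 5 Gy, 18 to 45 against 49 beside hairpin b at 5 Gy, 13 to 18 against 41 at 0 Gy, and 8 to 13 against 19 beside hairpin b at 0 Gy. At 5 Gy all 6 members lay lower with no overlap between arrays, which held for 6.27% of all genes. Beside hairpin b at 5 Gy 4 members did (4% of genes), at 0 Gy 3 (4.86%) and beside hairpin b at 0 Gy 2 (6% of genes). Medians of the members were -0.74 at 5 Gy, -0.61 beside hairpin b at 5 Gy, -0.39 at 0 Gy and -0.31 beside hairpin b at 0 Gy, against medians of all genes within 0.02 of 0. The comparisons at 5 Gy share arrays with the radiation comparisons and are not independent of them. Fitted on the arrays of the 2 groups alone, 1 member was called at 5 Gy (RRM2B), 0 beside hairpin b at 5 Gy and 0 at 0 Gy, and with the chip as a block 5 were called at 5 Gy. Beside hairpin b the replicate numbers pair the samples. With them as a block, GADD45A joined the 3 members called at 5 Gy (limma adjusted p = 0.0233). At 0 Gy RRM2B was then called (0.00142).

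**Figure D4:**
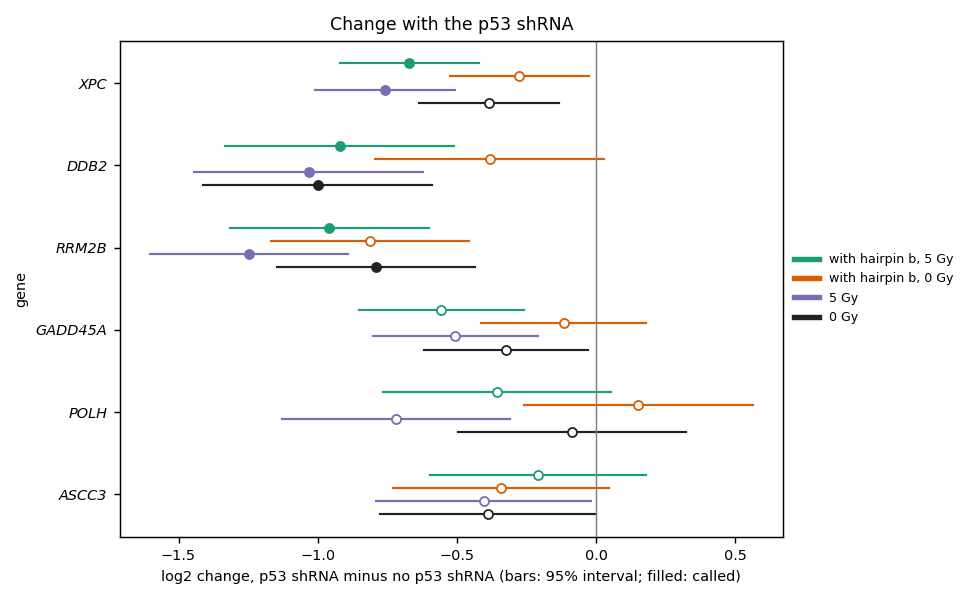
Log2 change with the p53 shRNA (horizontal axis, negative is lower with it) of each gene in the 4 pairs of groups, with 95% intervals and filled points for calls. RRM2B and DDB2 hold called falls in 3 of the 4 pairs and XPC in the 2 irradiated ones.

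NFBD1 hairpin b gave 0 called members by limma in each of its 4 pairs and on their mean, where 5.66% of all genes were called in either direction. In the single pairs 0.709% of genes were called beside the p53 shRNA at 5 Gy, 0.507% beside it at 0 Gy, 1.16% at 5 Gy and 0.443% at 0 Gy. Mean log2 changes over the 4 pairs were 0.10 for GADD45A (95% interval -0.04 to 0.25), 0.08 for POLH (-0.12 to 0.29), 0.04 for RRM2B (-0.13 to 0.22), 0.03 for ASCC3 (-0.16 to 0.22), 0.01 for DDB2 (-0.19 to 0.22) and -0.04 for XPC (-0.16 to 0.09). In single pairs the members ran from -0.31 (DDB2 at 0 Gy) to 0.31 (DDB2 beside the p53 shRNA at 0 Gy). Of the 6 genes, 0 had an unadjusted p under 0.05 in any of these 5 comparisons.

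The second NFBD1 hairpin, in unirradiated cells, raised 3 members. RRM2B had 9.20, 9.11 and 9.35 with the hairpin, against 8.39, 8.39 and 8.34 in its control (log2 change 0.85 ± 0.08, 1.80-fold, limma adjusted p = 7.9e-05). GADD45A had 10.44, 10.60 and 10.51, against 9.91, 10.07 and 9.86 in the control (0.57 ± 0.08, 1.49-fold, adjusted p = 0.000818). ASCC3 had 8.32, 8.13 and 8.24 with the hairpin, against 8.01, 7.68 and 7.73 in the control (0.42 ± 0.10, 1.34-fold, adjusted p = 0.0117). In all 3 genes every array with the hairpin lay above every control array. XPC had 8.51, 8.46 and 8.37, against 8.29, 8.21 and 8.24 in the control, also with no overlap, and a change of 0.20 ± 0.07 that fell short of the threshold (adjusted p = 0.0521). It was called in 4 alternative settings (adjusted p 0.0105 to 0.0486). DDB2 had 6.13, 5.98 and 6.17, against 6.06, 5.86 and 5.92 in the control (0.15 ± 0.08), and POLH 5.36, 5.32 and 5.31, against 5.17, 5.49 and 5.06 (0.09 ± 0.10); neither was called.

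These 3 calls stand in a comparison where 13.6% of 11040 genes tested were called higher and 26.2% in either direction, and where 21.8% lay higher with no overlap, as 4 of the 6 members did. The 3 calls held without any 1 of the 6 arrays. Of the other probes, that of GADD45A rose by 0.54 (adjusted p over 14520 probes 0.0009), that of RRM2B changed by 0.36 ± 0.13 (0.0787), and those of ASCC3 by 0.29, 0.01 and -0.00, none of them called. CDKN1A rose by 0.83 with the second hairpin and changed by 0.02 ± 0.09 with hairpin b on the mean of its pairs. The hairpins were run in separate experiments, on separate chips and normalized apart, so the difference between them was not tested.

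**Figure D5:**
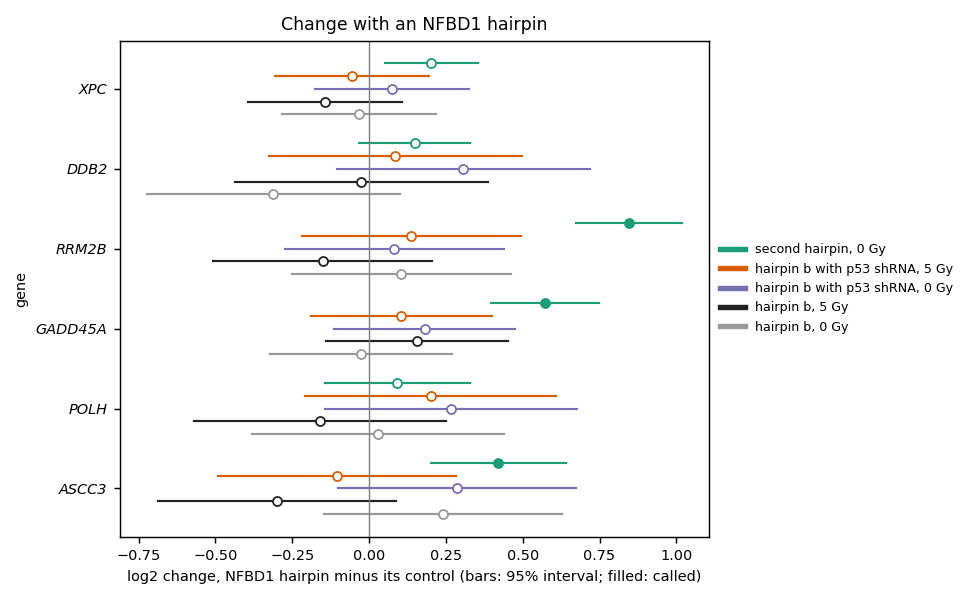
Log2 change with an NFBD1 hairpin against its control (horizontal axis) of each gene for the second hairpin and for hairpin b in its 4 pairs of groups, with 95% intervals and filled points for calls. The only called changes are those of RRM2B, GADD45A and ASCC3 with the second hairpin, and every interval of hairpin b contains 0.

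In order of mean level over the 8 groups of the first experiment, the irradiated groups with control shRNA or hairpin b came first and second for XPC, DDB2, RRM2B, POLH and, in the other order, GADD45A. Arrays of these 2 groups overlapped in each of the 5 genes. For XPC, DDB2, RRM2B and GADD45A the second group's arrays lay wholly above those of the third. The unirradiated p53 shRNA group came last for XPC, DDB2, RRM2B, GADD45A and ASCC3, and its arrays overlapped those of the group above it. For POLH and ASCC3 every neighbouring pair of groups overlapped. ASCC3 had unirradiated hairpin b second (mean 9.07) after irradiated control (9.17).

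Over the 24 arrays, XPC and RRM2B had the highest correlation among members (r = 0.903) and POLH and ASCC3 the lowest (r = 0.139); arrays share groups and chips, so these values only describe them. Members and genes with provisional symbols (such as LOC, KIAA or FLJ names) were left out of the search for similar genes. Among the other tested genes, XPC ran most like SESN1 (0.935), CDKN1A (0.92) and F2RL2 (0.917), and DDB2 most like F2RL2 (0.908), CDKN1A (0.888) and SESN1 (0.871). RRM2B ran most like ACTA2 (0.971), TRIM22 (0.95) and CYFIP2 (0.939), and GADD45A most like TIGAR (0.938), CDKN1A (0.917) and GDF15 (0.909). ASCC3 had SP3 (0.891), MARCHF6 (0.861) and TENT5C (0.854) nearest, and POLH only CNIH1 (0.75), DCP1B (0.748) and TYMSOS (0.736). For each member 1% of the 12252 genes compared reached an r of 0.561 to 0.706 or more.

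Few other genes of the members' pathways were called with radiation or the p53 shRNA. On the means, 0.515% of all genes were called higher with radiation and 2.36% lower with the p53 shRNA. In lists this short 0 calls are near those shares, and do not show that the pathways stayed unchanged. Of 30 tested nucleotide excision repair genes other than XPC and DDB2, 0 were called by limma in any of the 4 radiation or 4 p53 shRNA comparisons or on their means, where 1 and 2 had an unadjusted p under 0.05 and the list's medians were 0.01 and 0.01. Of 15 deoxynucleotide supply genes 0 were called in these comparisons (unadjusted p under 0.05 on the means for 1 and 2), likewise 0 of 7 of alkylation repair and the ASCC complex (1 and 1) and 0 of 6 of the GADD45 family and its partners (0 and 2). Among 15 translesion synthesis genes PCNA, the sliding clamp of DNA polymerases, was called higher at 5 Gy with hairpin b (0.57 ± 0.12, limma adjusted p = 0.0137) and on the mean of the 4 treatments (0.33 ± 0.06, adjusted p = 0.00158). Of 20 other p53 targets tested, 15 were called higher with radiation and 18 lower with the p53 shRNA on the means, with medians of 0.56 and -0.61.

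With the second hairpin, 13.6% of all genes tested were called higher and 26.2% in either direction. Of 14 deoxynucleotide supply genes 5 were called lower and 1 higher. They include the kinase DCK (-1.40 ± 0.07, 2.64-fold lower), the dUTPase DUT (-0.63 ± 0.07), the thymidine kinase TK1 (-0.30 ± 0.07) and the thymidylate kinase DTYMK (-0.39 ± 0.09). The other calls, named after their values were seen, were the large ribonucleotide reductase subunit RRM1 (-0.21 ± 0.06) and, higher, the deaminase DCTD (0.24 ± 0.06). Of 13 translesion synthesis genes 4 were called lower and 0 higher, HLTF (-0.55 ± 0.07), REV1 (-0.33 ± 0.07), USP1 (-0.29 ± 0.09) and PCNA (-0.22 ± 0.07). Of 29 nucleotide excision repair genes 3 were called higher, CDK7 (0.41 ± 0.08), CCNH (0.31 ± 0.07) and CETN2 (0.21 ± 0.07), and the ligase LIG1 was lower (-0.37 ± 0.07). Counted in either direction, calls in the translesion synthesis and nucleotide excision repair lists were thus near or below the 26.2% of all genes. The share of all genes called lower alone is not given here. No count of lower genes in this paragraph is therefore set against its own share. GADD45B was lower (-0.67 ± 0.13) and the stress kinase MAPK8 higher (0.44 ± 0.10). Of 21 other p53 targets 13 were called higher and 0 lower. Cell type markers moved in this comparison too. Of 8 tested mesenchymal markers 2 were called higher and 3 lower, and the list's summed intensity was 11698 to 12531 with the hairpin, against 14906 to 15138 in its control. Of 4 neural markers 3 were called lower, with sums of 960 to 990 with the hairpin, against 1312 to 1520 in its control. The epithelial marker CDH1 was higher (0.53 ± 0.07), with list sums of 182 to 188 with the hairpin, against 172 to 175 in its control, and the 1 tested blood marker was not called. The sums are of unlogged intensities, so the brightest marker of a list weighs most in them. For the mesenchymal list that was VIM (log2 13.22 to 14.27 over the 30 arrays), which was not among the called markers. For the neural list it was TUBB3 (9.49 to 11.15), which was called lower. The part of these markers in the members' calls was not tested.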

How the data were processed

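The probe table, as deposited, gives the intensity of every probe, averaged over its beads, and judging from the file headers and the values it was left uncorrected and unnormalized. Beside each intensity the deposited file holds a detection p-value. Another 60 columns were not used. The other file, processed by the authors to log2-like values whose making is unknown (median 6.951 on every array), served only as an alternative. No scanner software or genome build is given in the sources used here.

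The intensities of each experiment went through neqc of limma 3.58.1 (R 4.3.3), which infers the background from detection p-values, adds an offset of 16, quantile-normalizes and takes log2. A probe stayed in if 3 or more arrays had a detection p under 0.01. The brightest such probe by mean stood for its gene, for 12419 and 11040 genes. Of 48802 probes 27577 had 1 symbol, 13 several and 21212 none, and 27540 matched RefSeq (GRCh38.p14). All 12 probes of the members stayed in for the first experiment and 11 for the second. lmFit and eBayes were run on all groups of each experiment (residual degrees of freedom 16 and 4), for 18 comparisons, and a Benjamini-Hochberg adjusted p under 0.05 made a call. The script was tested on simulated data. Raw medians were 36.7 to 63.7, and the number of arrays limits the precision.

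The members and gene lists were chosen with earlier results of these data known. Named are the members, MDC1, CDKN1A, up to 4 called genes of each list (smallest adjusted p first), and the 3 genes that correlate best with each member. Other members and provisional symbols were left out of those 3. The first experiment lies on 4 chips, with both doses of a replicate on 1 chip. Deviations of same-numbered arrays correlated above 0.1 in every pair for radiation with both shRNAs (0.353 to 0.573), the p53 shRNA (0.418 to 0.558) and hairpin b (0.273 to 0.626), for the p53 shRNA beside hairpin b (0.264 to 0.601) and for hairpin b (0.103 to 0.592). There the numbers were taken as pairing, and elsewhere not. Radiation in control cells (0.0915 to 0.329) fell just short of this rule, although both doses of each replicate share a chip. Alternatives were the background correction, normalization, offset, probe filter, every probe tested, the authors' values, chip and replicate blocks, a fit of only the arrays compared, and leaving out each array.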

Additional observations from a re-analysis of the deposited data

Results flagged for a closer look

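For POLH and ASCC3 the change with radiation pointed in opposite ways in some treatments, on all 3 chips of each. Only the members were searched for this pattern, and how many of all genes show it was not examined. At 5 Gy POLH read lower on each of the 3 chips with both shRNAs (mean log2 change -0.211) and with the p53 shRNA alone (-0.144), and higher on each of the 3 with hairpin b (0.298) and in control cells (0.486). Some of these values were close to 0, as small as -0.0057 on 1 chip with both shRNAs and 0.0082 on 1 chip in control cells. The pooled interaction with the p53 shRNA was -0.57 ± 0.20 for POLH (unadjusted p = 0.00876, limma adjusted p = 0.998); single pairs of treatments were not tested. The authors' processed values moved it to -0.15.

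ASCC3 was lower at 5 Gy on each of the 3 chips with hairpin b (-0.204) and higher on each of the 3 in control cells (0.334) and with the p53 shRNA (0.318). Its pooled interaction with hairpin b was -0.46 ± 0.19 (unadjusted p = 0.0210, limma adjusted p = 0.819), and the difference from the p53 shRNA treatment was not tested. Of its other 3 probes, 1 had an interaction of -0.32 ± 0.18 and the other 2 had 0.05 ± 0.24 and -0.07 ± 0.27.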

How the results depend on the processing

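For the p53 shRNA beside hairpin b at 0 Gy, 0 members were called, and 1 (RRM2B) with no background correction, cyclic loess, an offset of 50, the authors' processed values, the chip as a block or the replicate number as a block. For the p53 shRNA at 0 Gy the count was 2, 1 with the authors' values, with no filter on dim probes or with every kept probe tested, and 0 when only the arrays compared were fitted. That last setting, which leaves 4 residual degrees of freedom, gave 0 for radiation with hairpin b and in control cells and for the p53 shRNA beside hairpin b at 5 Gy, and 1 for the p53 shRNA at 5 Gy. With no filter on dim probes 1 member was called for radiation in control cells. The chip as a block gave 4 for radiation with hairpin b and 5 for the p53 shRNA at 5 Gy, and the replicate block 5 for the p53 shRNA at 5 Gy.

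Leaving out 1 array gave 0 to 2 members for radiation with hairpin b, 0 to 2 in control cells, 2 to 3 for the p53 shRNA at 5 Gy, 0 to 1 at 0 Gy and 0 to 2 beside hairpin b at 5 Gy. On the means 4 members kept their calls for radiation and 4 to 5 for the p53 shRNA. Values that changed sign were all uncalled. Without 1 array some ran as far from 0 as -0.33 (ASCC3) and 0.34 (POLH). DDB2 with hairpin b (mean of 4 pairs) was -0.00090 with no background correction, -0.017 with cyclic loess, -0.0011 with an offset of 50 and -0.0066 with the authors' values. Without 1 array, the mean changes with hairpin b ran from -0.028 to 0.060 for DDB2, -0.0066 to 0.086 for RRM2B and -0.034 to 0.075 for ASCC3. ASCC3 ran from -0.069 to 0.15 in the interaction of radiation with the p53 shRNA and from -0.33 to 0.11 for radiation with both shRNAs. In the interaction with hairpin b, DDB2 ran from -0.060 to 0.12 and GADD45A from -0.031 to 0.12. For the p53 shRNA, POLH ran from -0.20 to 0.037 at 0 Gy and from -0.0086 to 0.34 beside hairpin b at 0 Gy, where GADD45A ran from -0.22 to 0.023. With the second hairpin POLH ran from -0.00092 to 0.22. The cause of these changes was not tested.

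Over all genes, fitting only the arrays compared lowered the count of calls by over 1.5 times in all 12 comparisons of 2 groups of the first experiment, for example to 28 against 73 for radiation in control cells and 24 against 87 for the p53 shRNA at 5 Gy. A chip or replicate block raised it by over 1.5 times in the comparisons other than radiation in control cells (up to 108), for example to 211 for the p53 shRNA at 5 Gy. Leaving out 1 array lowered it by over 1.5 times for at least 1 array in each of the 12, to 40 to 65 for radiation in control cells and 36 to 57 for the p53 shRNA at 5 Gy. Blocks also raised the counts on the means, up to 384 against 224 for radiation, 995 against 432 for the p53 shRNA and 1374 against 703 for hairpin b, and the interaction with the p53 shRNA gave up to 8 against 2. POLH and DDB2 had dim probes, which limits how well their changes are measured.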
